A study of Mus musculus with 3 samples.

Results

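The genes described here are 10 members of the Bcl2 family, chosen by symbol from the array's annotation: the survival genes Bcl2, Bcl2l1 and Mcl1, the pore-forming death genes Bax and Bak1, and the BH3-only death genes Bcl2l11, Bid, Bad, Bbc3 and Pmaip1. Of these, 9 were matched to a probe set with 1 gene symbol among 22180 genes, and Bax was not analysed here. RNA of 3 mouse pluripotent cultures was measured, each culture on 1 Affymetrix array (Mouse Gene 2.0 ST), so no difference was tested and "higher" and "lower" describe these 3 arrays. The Activin+PD culture was EB3 mouse embryonic stem cells (mESCs, an established line) held for 64 days in Activin A (20 ng/ml), which is a ligand of the TGF-beta family, and 2 µM PD0325901, an inhibitor of the ERK-activating kinase MEK. The 2i culture was EB3 mESCs held for 34 days in the same dose of PD0325901 together with the GSK3 inhibitor CHIR99021 at 2 µM. The mEpiSC culture was epiblast stem cells induced from EB3 mESCs and kept in bFGF (12 ng/ml) and the same dose of Activin A, with no MEK inhibitor; the labels give no time for them. All 3 cultures shared the basal medium N2B27 and the parent line, so they all stand for 1 line.

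The Bcl2 family decides whether the mitochondrial outer membrane is opened during apoptosis. Guardians such as Bcl2, Bcl-xL (Bcl2l1) and Mcl1 hold the effectors Bax and Bak in check, and BH3-only proteins respond to stress by binding the guardians or by activating the effectors. One known action of ERK signalling on this balance is at the protein level. ERK phosphorylates Bim (the product of Bcl2l11) and marks it for degradation, while the array measures RNA. Naive mESCs and primed epiblast cells are known to differ in how readily they enter apoptosis.

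The values were deposited as intensities and are given as log2 intensity. As background served, array by array, the 95th percentile over 1405 probe sets for olfactory and vomeronasal receptors, at log2 levels of 5.50 (Activin+PD), 5.59 (2i) and 5.57 (mEpiSC). All 9 members were above it on all 3 arrays. The only error that could be estimated was that of the probe sets, taken from 498 genes that had several probe sets above background on every array. Its standard deviation (SD) was, in log2 units, 0.25 in the comparison of Activin+PD with 2i, 0.33 in that of mEpiSCs with 2i and 0.30 in that of mEpiSCs with Activin+PD, and it leaves out the variation between cultures. The cultures carried the markers of their labels: all 8 naive markers listed were at least 2-fold lower in mEpiSCs than in 2i, and 5 of 7 primed markers were at least 2-fold higher. Between Activin+PD and 2i, 0 of the naive markers were 2-fold apart, beside 2.2% of all genes. Their differences (Activin+PD minus 2i) ran from -0.27 for Klf4 to 0.97 for Prdm14, which at 1.96-fold and 3.95 probe set SDs fell just short of 2-fold. Of the primed markers, only Fgf5 and Otx2 passed 2-fold, with Activin+PD as the brighter array. The other primed markers stayed within 2-fold and went both ways in log2 difference (Activin+PD minus 2i). Sox3 (0.32) and Pou3f1 (0.24) were above 0, and Dnmt3b (-0.60), Fst (-0.60) and Zic2 (-0.12) below. Of 11 fibroblast markers, which would mark feeder cells, 8 were above background on each array. The log2 of their summed intensity was 9.45 in Activin+PD, 9.35 in 2i and 9.87 in mEpiSCs, Dcn, Lum and Postn were below background on every array, and Mmp2 and Tagln were at least 2-fold higher in mEpiSCs than in each mESC culture. The part of this in the differences of the members was not tested.

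Among the members, the mEpiSC culture stood apart from both mESC cultures in Bcl2l11 and Bcl2, a death gene and a survival gene that were both higher there, while the other 7 members were within 2-fold in every comparison. Against 2i, 2 of 9 members were at least 2-fold higher in mEpiSCs and 0 lower. Over all 14223 genes of that comparison, 4.53% were higher by this rule and 4.96% lower, together 9.48%. Against Activin+PD, again 2 of 9 members were higher and 0 lower, beside 3.59% of 14383 genes higher and 5.37% lower, together 8.96%. Between the mESC cultures, 0 of 9 members were 2-fold apart, beside 1.38% of 14022 genes higher in Activin+PD and 0.82% lower, together 2.2%. With so few members, 2 of 9 is a description and was not set against these shares by a test. The comparisons share arrays, so their counts are not independent, and with 1 bulk array per culture, fewer cells of a type and less RNA per cell cannot be told apart. The plot of levels shows each member on its own axis.

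**Figure D1:**
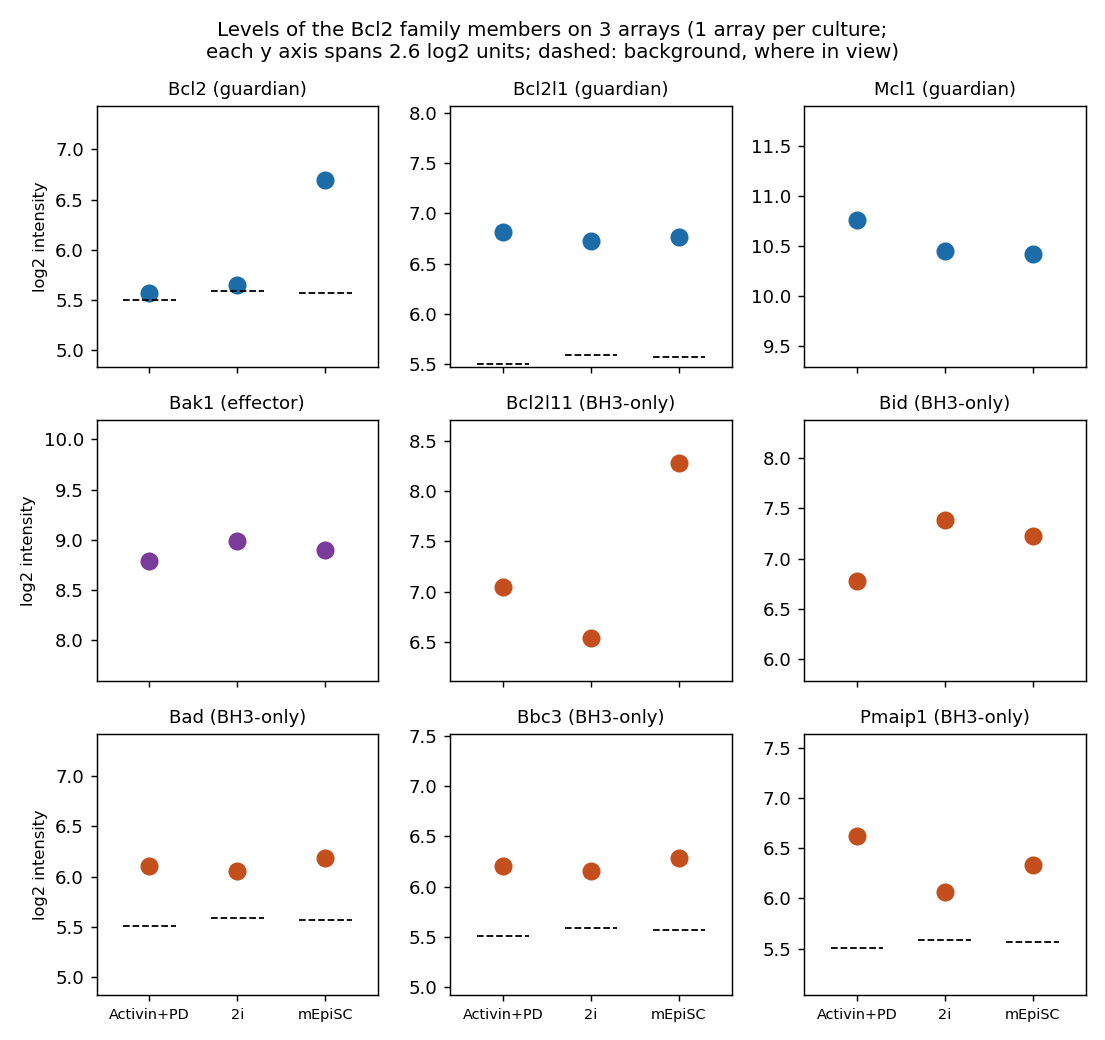
Log2 intensity (y axis) of each of the 9 members on the 3 arrays (x axis), 1 point per array, coloured by role (blue guardian, purple effector, orange BH3-only); dashed lines mark each array's background where it falls in view. Bcl2l11 reaches 8.28 and Bcl2 6.69 in mEpiSCs, while the remaining members span at most 0.60 log2 units.

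Bcl2l11, which encodes the BH3-only protein Bim, had the widest range of the members, 1.75 log2 units. It was read by 1 probe set (identifier 17375961, Entrez gene 12125). Its log2 level was 7.04 in Activin+PD, 6.54 in 2i and 8.28 in mEpiSCs, intensities of 132, 92.8 and 311. mEpiSCs were thus the highest and 2i the lowest of the 3. The log2 difference of mEpiSCs was 1.75 from 2i, or 3.35-fold and 5.28 probe set SDs, and 1.24 from Activin+PD, or 2.36-fold and 4.12 probe set SDs. Between the mESC cultures it was 0.51 higher in Activin+PD, 1.42-fold, within 2-fold but 2.06 probe set SDs. In size, the difference between mEpiSCs and 2i exceeded that of 96.5% of 14223 genes, and the difference from Activin+PD that of 93.7% of 14404 genes. The culture with the highest Bcl2l11 RNA was therefore the one grown with bFGF and without the MEK inhibitor. MEK inhibition, GSK3 inhibition, Activin A, bFGF and cell state all differ between the mEpiSC and 2i cultures and cannot be told apart.

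The genomic sequence before the Bcl2l11 start sites is shown because Bcl2l11 had the widest range and FOXO factors are known to bind its promoter. That of Bcl2 is shown because it was the other member that was higher in mEpiSCs. That of Bbc3 is shown because it holds the same FOXO core. The level of Bbc3 hardly differed, but it lay close to background on every array. Each run is 250 bases ending just before a RefSeq start (GRCm38.p6), 5′ to 3′ on the gene's strand, with the FOXO core GTAAACA or its reverse complement TGTTTAC in capitals. The windows are chr2:128125788-128126037 (plus strand) and chr2:128127325-128127574 (plus strand) for Bcl2l11, chr1:106714291-106714540 (minus strand) for Bcl2 and chr7:16310011-16310260 (plus strand) for Bbc3.
Bcl2l11, upstream start: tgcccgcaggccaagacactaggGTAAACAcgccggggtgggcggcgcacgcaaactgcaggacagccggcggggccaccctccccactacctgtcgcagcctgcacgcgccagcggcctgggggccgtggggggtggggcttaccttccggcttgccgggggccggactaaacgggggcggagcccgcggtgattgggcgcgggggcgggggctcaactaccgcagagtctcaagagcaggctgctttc
Bcl2l11, downstream start: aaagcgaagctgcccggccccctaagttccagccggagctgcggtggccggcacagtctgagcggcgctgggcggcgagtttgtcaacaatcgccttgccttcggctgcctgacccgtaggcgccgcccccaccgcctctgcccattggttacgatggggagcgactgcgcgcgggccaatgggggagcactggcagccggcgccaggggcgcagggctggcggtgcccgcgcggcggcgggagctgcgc
Bcl2: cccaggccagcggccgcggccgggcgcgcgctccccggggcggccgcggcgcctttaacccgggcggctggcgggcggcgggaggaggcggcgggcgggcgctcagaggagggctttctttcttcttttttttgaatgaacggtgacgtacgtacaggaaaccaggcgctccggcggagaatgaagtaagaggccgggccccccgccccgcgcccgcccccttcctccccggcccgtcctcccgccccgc
Bbc3, start 2 of 3: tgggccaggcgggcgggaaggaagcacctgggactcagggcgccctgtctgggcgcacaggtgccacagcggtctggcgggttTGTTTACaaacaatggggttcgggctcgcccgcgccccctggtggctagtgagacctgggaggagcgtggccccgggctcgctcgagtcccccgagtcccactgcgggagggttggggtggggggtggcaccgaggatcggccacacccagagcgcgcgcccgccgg

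The core was found once in the upstream Bcl2l11 window, beginning 227 bases before the start, and once in the Bbc3 window, on the opposite strand and beginning 167 bases before the start. The downstream Bcl2l11 window and the Bcl2 window did not contain these letters. Searched on both strands, the core occurs in 3.17% of 32851 promoter windows of this length. RefSeq windows were matched for 9 of the 10 members, 15 windows in all, and Pmaip1 is named only. The core occurred in no other window of these genes. The E-box CACGTG, a palindrome that does not overlap the FOXO core and that Myc family factors can bind, occurs in 6.02% of all windows; among these genes it was found in the window of Bax, beginning 9 bases before the start, and in the window of Bbc3 start 3, beginning 64 bases before it. These matches describe letters and do not show binding. All windows shown were rich in G and C, with 72% and 73.2% for the Bcl2l11 windows, 74.8% for Bcl2 and 72.4% for Bbc3.

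Among the guardians, Bcl2, the founding survival gene, was higher in mEpiSCs, whereas Bcl2l1 and Mcl1 were at similar levels on all 3 arrays. The probe set used for Bcl2 (identifier 17226043, Entrez gene 12043) gave log2 levels of 5.57 in Activin+PD, 5.65 in 2i and 6.69 in mEpiSCs. Both mESC values lay just above background and the mEpiSC value clearly above it. The log2 difference was 1.04 from 2i, or 2.05-fold and 3.14 probe set SDs, and 1.13 from Activin+PD, or 2.18-fold and 3.74 probe set SDs. The mESC cultures differed by -0.09 (Activin+PD minus 2i), less than 1 probe set SD. A second probe set of Bcl2 was below background on every array, at 4.77, 4.86 and 5.05 in the same order. With the mean of both probe sets, Bcl2 was within 2-fold, at 0.61 from 2i and 0.70 from Activin+PD. With background set at the 99th percentile of the receptor probe sets, Bcl2 was above it in mEpiSCs only, and its difference was then bounded as at least 0.15 from 2i and at least 0.27 from Activin+PD.

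Bcl2l1 encodes Bcl-xL, a guardian that holds both effectors. Its log2 level was 6.81 in Activin+PD, 6.72 in 2i and 6.77 in mEpiSCs. The whole range was 0.09, less than 1 probe set SD, so no culture stood apart, and the sign of mEpiSC minus Activin+PD (-0.05) turned to 0.0058 when the arrays were quantile-normalised again. Mcl1 encodes a guardian with a short-lived protein. It stood at 10.76 in Activin+PD, 10.45 in 2i and 10.42 in mEpiSCs, so that Activin+PD was the highest and the other cultures lay 0.03 apart. The log2 difference of Activin+PD was 0.31 from 2i, or 1.24-fold and 1.25 probe set SDs, and mEpiSC minus Activin+PD was -0.34, or 1.26-fold and 1.13 probe set SDs. The second probe set of Mcl1, above background on every array, gave differences of 0.16 (Activin+PD minus 2i) and -0.12 (mEpiSC minus Activin+PD), the same directions with smaller sizes.

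The effector Bak1, which forms pores in the outer membrane, was nearly level. It stood at 8.79 in Activin+PD, 8.99 in 2i and 8.90 in mEpiSCs. Its largest difference was Activin+PD minus 2i at -0.20, 1.15-fold and 0.81 probe set SDs, which is within the probe set error.

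The other BH3-only genes spanned narrower ranges than Bcl2l11, and Bid and Pmaip1 had other orders. Bid encodes a protein that caspase-8 cleaves to link death receptors to mitochondria. Its log2 level was 6.78 in Activin+PD, 7.38 in 2i and 7.23 in mEpiSCs. Activin+PD was the lowest, 0.60 below 2i, which is 1.51-fold and 2.44 probe set SDs, and 0.45 below mEpiSCs, which is 1.36-fold and 1.49 probe set SDs. The 2i and mEpiSC levels were 0.15 apart, less than 1 probe set SD. In size, the difference between the mESC cultures exceeded that of 93.2% of 14074 genes, the highest rank of any member in that comparison.

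Pmaip1 encodes Noxa, a BH3-only protein that binds Mcl1. It stood at 6.62 in Activin+PD, 6.06 in 2i and 6.34 in mEpiSCs. Activin+PD was the highest, by 0.56 over 2i, or 1.47-fold and 2.28 probe set SDs, and mEpiSCs lay between, at 0.28 from either, under 1 probe set SD each way. Mcl1 and Pmaip1 thus had their highest level in the same culture, Activin+PD, at 1.24-fold and 1.47-fold over 2i. With background at the 99th percentile (6.54 in 2i and 6.42 in mEpiSCs), Pmaip1 was above it in Activin+PD only. Its differences from the other cultures would then be bounds, smaller than the values given.

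Bad, whose protein growth factor signalling is known to hold inactive by phosphorylation, stood at 6.11 in Activin+PD, 6.06 in 2i and 6.18 in mEpiSCs. Bbc3, which encodes the p53-induced protein Puma, stood at 6.21, 6.16 and 6.29 in the same order. For both genes the full range, 0.12 for Bad and 0.13 for Bbc3, was under 1 probe set SD. Bad and Bbc3 on every array, Bcl2 in the mESC cultures and Pmaip1 in 2i and mEpiSCs lay close to background, below its 99th percentile. With the 99th percentile as background, 6 of 9 members were above it in Activin+PD, 4 in 2i and 6 in mEpiSCs. Under that setting Bcl2l11 fell just short of background in 2i, and its difference was bounded as at least 1.74.

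**Figure D2:**
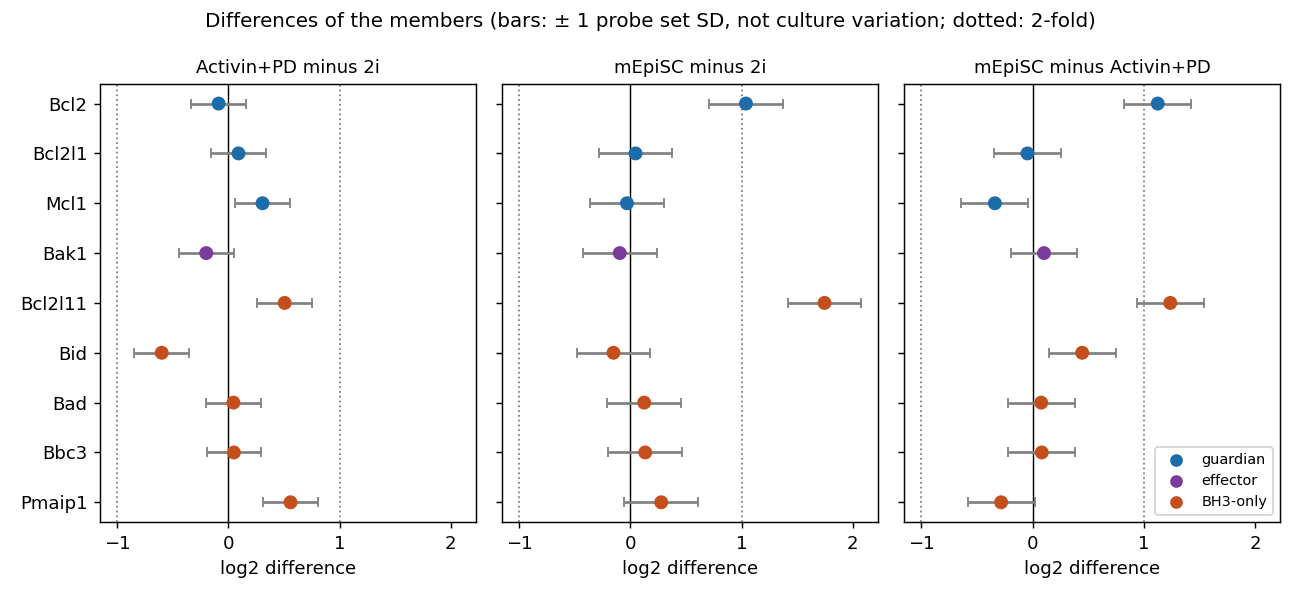
Log2 difference (x axis) of each member (y axis) in the 3 comparisons, coloured by role; bars are ± 1 probe set SD, which leaves out variation between cultures, and dotted lines mark 2-fold. Bcl2l11 and Bcl2 pass the 2-fold line in the mEpiSC comparisons, and in Activin+PD minus 2i Bcl2l11 (0.51), Pmaip1 (0.56) and Bid (-0.60) lie farthest from 0.

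The balance of survival and death genes was compared through differences between arrays, since levels of different probe sets cannot be set against each other. It was the median log2 difference of the 3 guardians minus that of the 6 death genes measured. The guardian median was the value of Bcl2l1 in every comparison. The death gene median lay between Bad and Bbc3 in both comparisons with 2i. In mEpiSC minus Activin+PD it lay between Bbc3 and Bak1. For Activin+PD minus 2i, the guardians had a median of 0.09 and the death genes of 0.05, a balance of 0.04. For mEpiSC minus 2i the medians were 0.05 and 0.13, a balance of -0.08, and for mEpiSC minus Activin+PD -0.05 and 0.09, a balance of -0.14. No error could be given for a median over so few genes. With background at the 99th percentile, the balance turned to 0.14 for mEpiSC minus 2i and was -0.32 for mEpiSC minus Activin+PD. These values rest on fewer death genes, while the levels were unchanged. Bad and Bbc3 dropped out of both comparisons, and Pmaip1 also out of mEpiSC minus 2i. With the mean over probe sets, Bcl2 was below background in both mESC cultures and dropped out of Activin+PD minus 2i. The balance there was 0.12. Over all genes the median difference was -0.0069, 0.030 and 0.041 in the same order of comparisons. Bcl2l11 and Bcl2, the members that were 2-fold apart, lie on opposite sides of this balance. The sizes of their differences did not enter the medians, so the balance does not measure their changes. Of the 9 members, 5 differed by less than 1 probe set SD in Activin+PD minus 2i, 7 in mEpiSC minus 2i and 5 in mEpiSC minus Activin+PD.

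**Figure D3:**
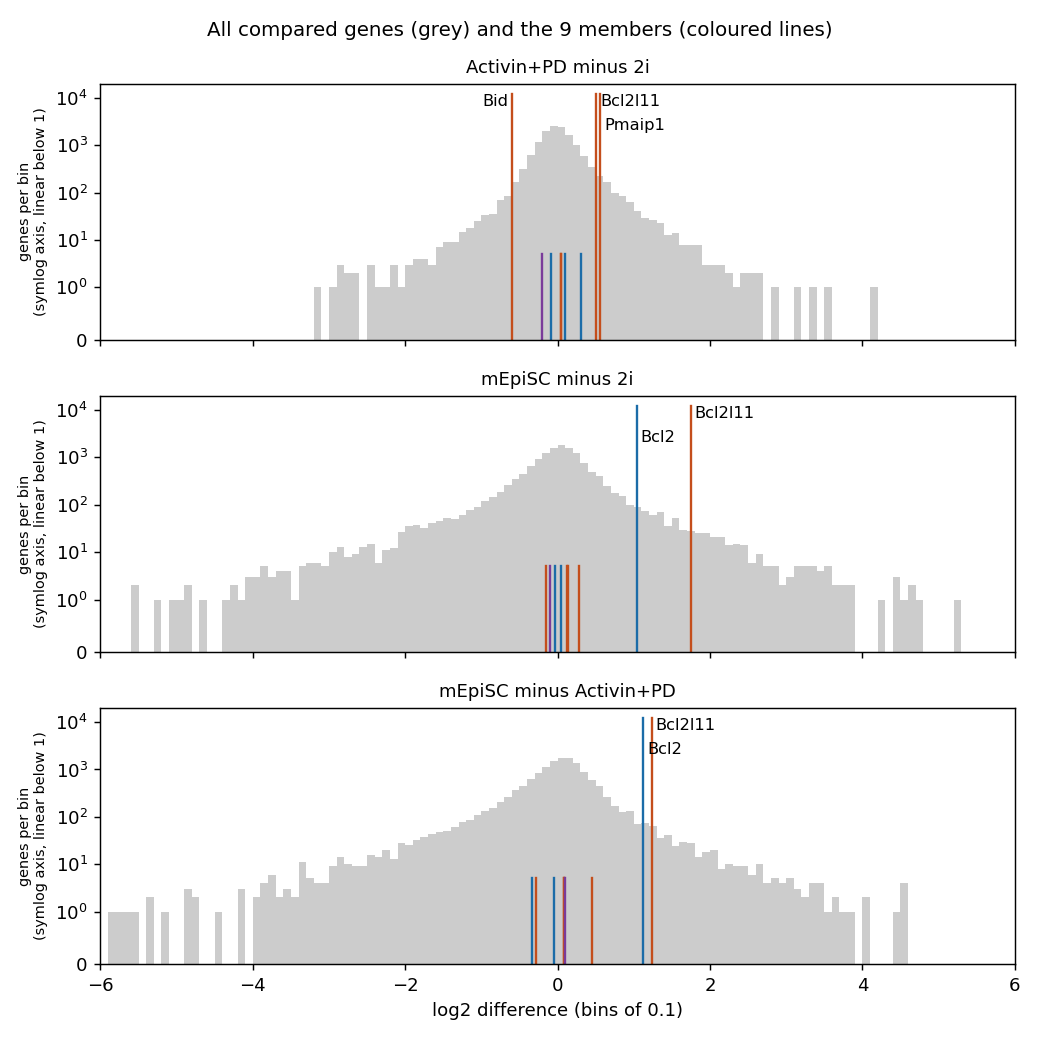
Number of genes (y axis, symlog: logarithmic above 1) per bin of 0.1 in log2 difference (x axis) for all genes compared (grey), with the 9 members as lines coloured by role (blue guardian, purple effector, orange BH3-only); tall lines with names mark Bcl2l11, Bcl2, Bid and Pmaip1 where they lie apart. Most members fall in the central peak, and Bcl2l11 lies at 1.75 in mEpiSC minus 2i.

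Other genes of the pathway were taken from lists set by function, and their counts are read against the percentages of all genes given above. Of 15 other Bcl2 family genes, 11 were matched and 7 were above background in at least 1 culture of each comparison. Bcl2l14, a divergent family member, had log2 levels of 5.68 (Activin+PD) and 6.16 (2i) and was below background in mEpiSCs, so that it was lower there than in 2i by at least 0.59, with a measured difference of -1.21. It was the 1 gene of this list 2-fold apart in any comparison. Bcl2l13 stood at 8.23, 8.04 and 8.41, Bnip3 at 7.25, 6.93 and 7.13, and Bik, a further BH3-only gene, at 6.95, 6.67 and 6.78 in Activin+PD, 2i and mEpiSCs. The list median was 0.18 for Activin+PD minus 2i, and mEpiSCs had one of 0.11 against 2i and of -0.11 against Activin+PD.

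Of 14 genes of the apoptosome, caspases and mitochondrial channels that were matched out of 16, 0 were 2-fold apart in any comparison, and the medians were -0.04, 0.09 and 0.11. Beside 2.2%, 9.48% and 8.96% of all genes, a count of 0 among 14 is not read as a result about the list. Htra2, a mitochondrial protease named here after its values were seen, stood at 8.42 in Activin+PD, 9.09 in 2i and 9.13 in mEpiSCs. It was lowest in Activin+PD, 1.59-fold below 2i (-0.67, 2.73 probe set SDs) and 1.63-fold below mEpiSCs. Vdac3 and Vdac1, channels of the outer membrane, spanned 12.00 to 12.16 and 11.06 to 11.19. Cycs, which encodes cytochrome c, was 0.43 higher in mEpiSCs than in 2i, and its other 4 probe sets gave 0.14 to 0.60; Cycs has processed copies in the genome that probes may not tell apart. Of 7 inhibitor of apoptosis genes, 6 were matched, 5 were compared and 0 were 2-fold apart, with medians of 0.02, 0.13 and -0.01. Beside the same shares of all genes, this count is not read as a result either. Birc6 stood at 9.43, 9.64 and 9.83, Birc5 (survivin) at 8.46, 8.46 and 8.23, and Xiap, a direct caspase inhibitor, at 7.68, 7.63 and 7.67.

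Death receptors act on the mitochondria through Bid. Of 10 genes listed, 9 were matched and 6 compared; 0 were 2-fold apart in mEpiSC minus 2i and 1, Casp8, in each other comparison, with a median for mEpiSCs of 0.73 against 2i and 0.50 against Activin+PD, beside 0.0058 for Activin+PD minus 2i. Casp8, which encodes the protease that cleaves Bid, stood at 6.86 in Activin+PD, 8.10 in 2i and 8.96 in mEpiSCs. Activin+PD was the lowest, as for Bid: Casp8 was 2.35-fold lower there than in 2i, a log2 difference of -1.23, and mEpiSCs were 4.27-fold above Activin+PD, by 2.09. Cflar, which encodes an inhibitor of caspase-8, and the adaptor gene Fadd, both named after their values were seen, stood at 5.85, 5.81 and 6.57 and at 6.43, 6.62 and 6.34. Tnfrsf10b, a receptor for the ligand TRAIL, stood at 9.52, 9.04 and 9.80 and Tnfrsf1a, a TNF receptor, at 6.29, 6.32 and 7.02, while Fas and its ligand gene Fasl were below background on every array.

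Genes of the p53 axis, which controls Bbc3, Pmaip1 and Bax, had a median of -0.07 for Activin+PD minus 2i, and in mEpiSCs of -0.28 against 2i and -0.14 against Activin+PD, over 14 genes compared of 16 listed. Perp, a p53 target that also belongs to desmosomes, was higher in mEpiSCs by 2.45 over 2i and by 2.41 over Activin+PD. Mdm4, an inhibitor of p53, and Sesn1, a p53 target of the stress response, were lower in mEpiSCs, at -1.29 and -1.36 against 2i and at -1.01 and -1.35 against Activin+PD. The cell cycle inhibitor Cdkn1a, a classical p53 target, stood at 10.35 in Activin+PD, 11.16 in 2i and 10.28 in mEpiSCs. It was thus highest in 2i, whereas Bbc3 was level and Pmaip1 was lowest in 2i. Ccng1 stood at 11.76, 11.88 and 12.01 and Sesn2 at 10.54, 10.59 and 10.11.

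Genes that are known to control members were read next, 16 of 17 listed being compared, with medians of 0.10, -0.03 and -0.14. Myc was higher in mEpiSCs by 2.13 over 2i and 1.92 over Activin+PD. Usp9x, which encodes a deubiquitinase that stabilises Mcl1 protein, was lower in mEpiSCs, at 9.58 against 10.67 in Activin+PD and 10.66 in 2i. Huwe1, which encodes a ligase that marks Mcl1 for degradation, stood at 10.07, 10.15 and 9.88. Pim1, a survival kinase that phosphorylates Bad, was higher in Activin+PD, at 9.84 against 8.72 in 2i and 8.49 in mEpiSCs, and its second probe set gave 0.93 for Activin+PD minus 2i. Of the FOXO genes, named here after their values were seen, Foxo1 stood at 7.94, 7.77 and 8.75 and Foxo3 at 7.48, 7.42 and 6.91 in Activin+PD, 2i and mEpiSCs. Foxo1 was thus highest and Foxo3 lowest in mEpiSCs, both within 2-fold, and the second probe set of Foxo1 gave 0.25 for mEpiSC minus 2i against 0.98.

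**Figure D4:**
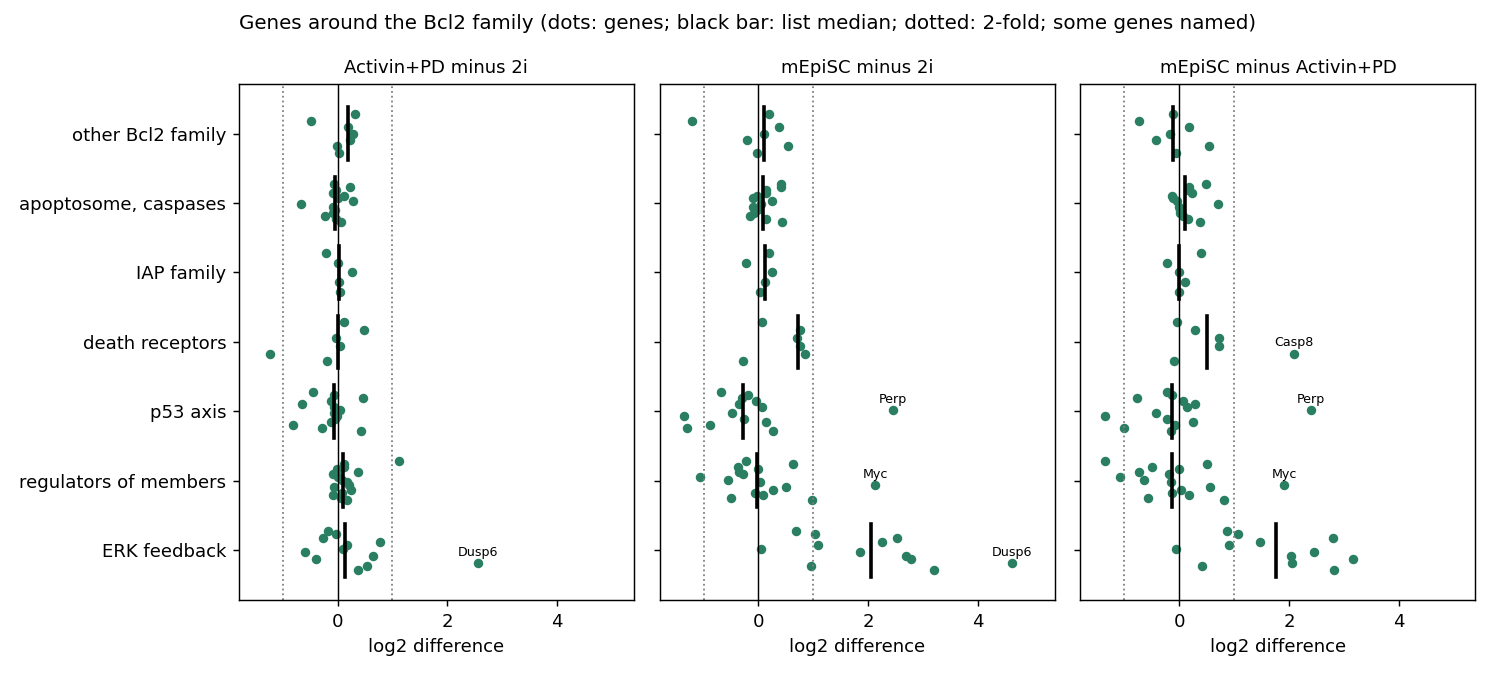
Log2 difference (x axis) of the genes of 7 lists around the Bcl2 family (y axis) in the 3 comparisons; each dot is 1 gene above background in at least 1 of the arrays compared, black bars are list medians and dotted lines mark 2-fold. ERK feedback genes are shifted to higher values in both mEpiSC comparisons (medians 2.05 and 1.76). The apoptosome and inhibitor of apoptosis lists hold 0 genes past 2-fold. Beside 2.2%, 9.48% and 8.96% of all genes in the 3 comparisons, this is not read as a result about those lists.

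RNA of ERK feedback genes was read beside Bcl2l11, because the MEK inhibitor was present in both mESC cultures and absent from mEpiSCs. Of 12 such genes, 9 were at least 2-fold higher in mEpiSCs than in 2i and 8 than in Activin+PD, and 0 lower, with medians of 2.05 and 1.76. In Activin+PD minus 2i, 1 was higher and the median was 0.14. Dusp6, an ERK phosphatase, stood at 9.09 in Activin+PD, 6.52 in 2i and 11.14 in mEpiSCs. The order of Bcl2l11 was shared by 6 of the 12 genes, Dusp6 included. Another 5 (Spry2, Spred1, Ier3, Phlda1 and Egr1, the last below background in Activin+PD) were higher in 2i than in Activin+PD. Spred2 was highest in Activin+PD. Some orders are unsure, since Etv4 (0.18), Ier3 (-0.03), Phlda1 (-0.18) and Spred2 (0.11) differed by less than 1 probe set SD in Activin+PD minus 2i. The share of all genes with each order was not taken. Besides Dusp6, the other 8 genes at least 2-fold higher in mEpiSCs than in 2i included Dusp4 at 3.19, Spry2 at 2.77 and Egr1 at 2.53. Spry4 was at 2.69 (below background in 2i, so at least 2.43). The rest were Etv5 at 2.25, Spred1 at 1.86, Etv4 at 1.09 and Ier3 at 1.04. A second probe set of Etv5 gave the opposite sign, -0.41, and that of Dusp6 was below background on every array. Bcl2l11 RNA was highest in mEpiSCs, as was the RNA of 11 of these 12 genes. The share of all genes that were highest in mEpiSCs was not taken, and a link of Bcl2l11 to ERK signalling was not tested. The arrays hold no measure of Bim protein.

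The genes most like Bcl2l11 were found by the Euclidean distance between log2 levels centred on each gene's mean, over 3 arrays and 12644 genes above background on all of them. The nearest were Susd4 at a distance of 0.032, Klhdc2 at 0.040, Dpysl2 at 0.051, Dbn1 at 0.064 and Slc6a15 at 0.070. Klhdc2, for example, stood at 8.97, 8.51 and 10.20 in Activin+PD, 2i and mEpiSCs. In all, 59 genes lay within 0.25 of Bcl2l11, and with 3 arrays such likeness is a description of level alone.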

How the data were processed

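Each of 3 cultures gave total RNA for 1 Mouse Gene 2.0 ST array (Affymetrix). The deposited values are intensities on a linear scale, judged from the values, with 1 per probe set; the submitters' processing notes name RMA, and the series' design text names GeneSpring GX 11.5. Quantile normalisation, a step of RMA, gives all arrays the same spread of values and hides any difference in RNA content per cell. The lowest value was 18.9 to 19.1 on each array; no source used here says whether a constant had been added, which would shrink the differences of dim genes. The median intensity was 50.9 to 51.9.

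Log2 of each deposited intensity was taken (Python 3.11.15, numpy 2.4.6, pandas 2.3.3). Of 33793 probe sets, 23521 had 1 gene symbol, 1814 several and 8458 were not listed. Symbols were updated through Entrez identifiers, and the probe set with the highest mean stood for a gene. A gene was compared where the brighter array was above background (in list medians, where either array was) and counted where it differed at least 2-fold. Where the dimmer array did not pass background, a bound is given. For the probe set SD, the log2 difference between the arrays compared was taken for each of 2 probe sets of a gene. The SD, over genes, of the disagreement between these 2 differences was scaled by 1 over the square root of 2. Named genes were all members, list genes 2-fold apart in any comparison, the 3 list genes with the highest mean level, and the 5 genes nearest to Bcl2l11, which was also the member of widest range. Named outside this rule were Htra2, Cflar, Fadd, Fas, Fasl, Phlda1, Foxo1 and Foxo3, and cell type markers. The members and lists were chosen with earlier results of these data known. The arrays' number, 1 per culture, limits the precision.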

Additional observations from a re-analysis of the deposited data

How the results depend on the processing

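With 1 array per culture no replicate could be left out. No paired analysis was possible because each group has 1 array. Alternatives were a repeated quantile normalisation, median centring, 16 subtracted from each intensity, the mean over probe sets, background at the 99th percentile, values below background raised to it, a 1.5-fold threshold and no background filter. At 1.5-fold, 996 genes were apart in Activin+PD minus 2i, 2806 in mEpiSC minus 2i and 2830 in mEpiSC minus Activin+PD, against 308, 1349 and 1289 at 2-fold, and 1 member, Bid, was apart between the mESC cultures against 0. With the mean over probe sets, 1 member (Bcl2l11) in place of 2 was 2-fold apart in each mEpiSC comparison, because the second probe set of Bcl2 is below background. With 16 subtracted, Bcl2 was 1.48 higher in mEpiSCs than in Activin+PD. Of 27 differences of members, none of those at least 2-fold changed sign under the 5 settings that can change a difference. The sign of 1 turned under the repeated quantile normalisation (Bcl2l1, mEpiSC minus Activin+PD) and of 1 with the mean over probe sets (Mcl1, mEpiSC minus 2i), each under 0.05 in size. Under the settings other than the 1.5-fold threshold, total counts of genes 2-fold apart stayed within 1.5 times, but with 16 subtracted the genes higher in Activin+PD than in 2i went from 193 to 295. Signal over background limits Bcl2, Bad, Bbc3 and Pmaip1 most.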
